A study of Mus musculus with 13 samples.

Results

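The nuclear genes of oxidative phosphorylation were compared between Rad21 KO and wild type (WT) CD4+CD8+ double-positive thymocytes, immature T cells of the thymus at the step where both coreceptors are on the surface. The genes were chosen by symbol: names that start with Nduf, Uqcr, Cox4 to Cox8 or Atp5, together with Sdha to Sdhd, Cyc1 and Cycs, without the genes of the mitochondrial genome. This gave 94 of the 17849 genes in the table, and 88 of them passed the filter on low counts. The rule itself reads symbols alone, but the set was proposed with earlier results of these data known.

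RNA was sequenced from 2 Rad21 KO and 2 WT libraries of sorted cells, as part of a series on how cohesin, its loader and Mediator act on transcription and genome folding. Rad21 is a subunit of cohesin, the ring-shaped complex that holds DNA loops and sister chromatids together. The labels of the RNA samples name cell type and genotype. The way and the tissue of the deletion, the age and strain of the mice, and whether the libraries came from separate animals are not stated. The p-values therefore measure the spread between these libraries, which may be technical.

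Oxidative phosphorylation is the route by which mitochondria turn the electrons of nutrients into ATP. Complex I takes electrons from NADH and complex II from succinate; complex III passes them through cytochrome c to complex IV, which reduces oxygen. The proton gradient built on the way drives complex V, the ATP synthase. All subunits of complex II and most of the others are encoded in the nucleus, while a small set of core subunits of complexes I, III, IV and V is encoded in mitochondrial DNA, so each of these enzymes is assembled from the products of both genomes.

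Rad21 RNA stood at 67.9 and 65.7 CPM, the usual depth-scaled count unit and here computed with TMM library factors, in Rad21 KO, against 271 and 233 CPM in WT. All 10 genes of the list chosen for double-positive thymocytes, Cd4 and Cd8a among them, had counts in every library. Their sum was 10453 and 9110 CPM in Rad21 KO against 14945 and 13577 CPM in WT. The log2 fold changes (Rad21 KO over WT) were below 0 for 8 and above 0 for 2. Cd4 stood at -0.48 (SE 0.15) and Cd8a at -0.34 (SE 0.13), and neither was called. Of these 10 listed genes 4 were called lower in Rad21 KO at an adjusted p under 0.05, among them Rag1 and Themis, and 1, Ptcra, higher. Over all tested genes 5.17% were called lower and 7.6% higher. In bulk RNA, fewer cells of a type and less RNA per cell cannot be told apart. The thymic epithelial markers Krt5, Krt8 and Foxn1 had 0 to 5 counts in each library. The 8 listed epithelial and stromal markers did not move together. Pecam1 fell, with 96.5 and 103 CPM in Rad21 KO against 150 and 147 CPM in WT, and made up most of the list's sum of 106 and 117 CPM in Rad21 KO and 156 and 152 CPM in WT. The other 7 summed to 9.86 and 14.0 CPM in Rad21 KO and 5.19 and 4.71 CPM in WT, and among them Epcam rose, with 69 and 84 counts in Rad21 KO against 11 and 7 in WT. The gene Lars2 and the noncoding gene Gm15564 together held a share of 34.5% and 12.6% of all counts in Rad21 KO, against 5.84% and 7.47% in WT. The part of the marker genes in the results that follow was not tested. With Lars2 and Gm15564 left out of the fit, the counts of called genes given below for the respiratory chain stayed at 0 nuclear and 8 mitochondrially encoded genes. Without both genes the libraries held 6015242 to 6245780 counts.

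None of the nuclear oxidative phosphorylation genes was called different between the genotypes. In edgeR's quasi-likelihood test, with Benjamini-Hochberg adjustment over all genes and a threshold of 0.05, 0 of 88 were higher and 0 lower in Rad21 KO, where 12.8% of the 12003 genes tested were called, 7.6% higher and 5.17% lower. The smallest adjusted p among them was 0.107, for Ndufs1. At an unadjusted p under 0.05 there were 2 of 88, Ndufs1 and Ndufs4, against 29.4% of all genes tested. DESeq2 also called 0, with 0 at an unadjusted p under 0.05, where it called 10.9% of all genes and put 20.7% under that unadjusted p. Limma-voom called 0, with 2 at an unadjusted p under 0.05, where the shares of all genes were 12.4% and 29.5%. Libraries of the genotypes did not overlap for 40 of 88 genes (45.5%), where 58.9% of all tested genes did not.

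The fold changes lay in a narrow band around 0. The median log2 fold change (Rad21 KO over WT) was -0.02, with quartiles of -0.14 and 0.13, and 40 genes were above 0 and 48 below. Over all tested genes the median was -0.01 and the quartiles -0.28 and 0.28. The standard deviation of the log2 fold changes was 0.24 over these genes and 0.66 over all genes. A log2 fold change between -0.5 and 0.5 was found for 85 of the 88, and for 72.8% of all genes tested.

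The intervals of the fit limit how large a difference between these libraries could have been missed, gene by gene. They rest on the TMM factors and on a spread between libraries that may be technical. No allowance was made in them for the number of genes. The 95% interval of the log2 fold change lay between -1 and 1, inside a 2-fold change either way, for 82 of the 88 genes (93.2%), where 65.3% of all tested genes had such an interval. The 6 genes with a wider interval were Ndufb4, Ndufa5, Ndufaf2, Ndufaf6, Cox6b2 and Atp5s. All had a mean under 5 CPM, the highest being 4.43 CPM, and the fit did not bound their change within 2-fold. The median level behind these tests was 35.9 CPM, against 27.0 CPM for all tested genes. Restricted to means of at least 20 CPM, all 65 intervals lay inside 2-fold, against 87.4% of all genes at that level. Counts of the tested genes ran from 5 to 3886 per library, with medians of 250.5 and 253.5 in Rad21 KO and 283 and 242.5 in WT.

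**Figure D1:**
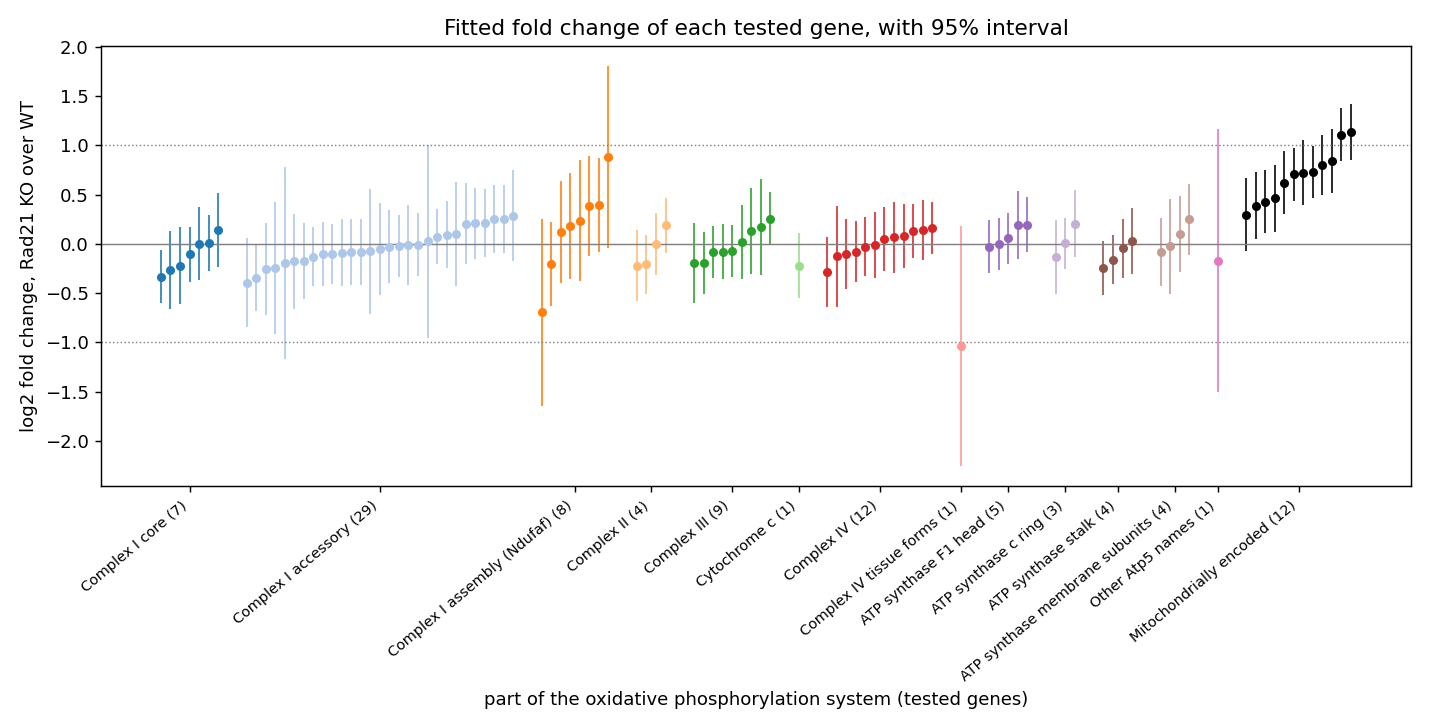
Log2 fold change (vertical axis, Rad21 KO over WT) of each tested gene, grouped along the horizontal axis by part of the respiratory chain, with bars for the 95% interval and dotted lines at a 2-fold change. The 88 nuclear genes scatter around 0, and the 12 mitochondrially encoded genes (black) all lie above it.

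Summed over all 94 genes, the level was 4567 and 4422 CPM in Rad21 KO and 4759 and 4325 CPM in WT. Both knockout sums lay between the 2 wild type sums. The means were 4494 ± 103 CPM in Rad21 KO and 4542 ± 307 CPM in WT (SD, n = 2 libraries each; two-sided exact permutation p = 1, where 0.333 is the smallest p that 2 against 2 libraries allow). As a share of raw counts the sum was 0.356% and 0.460% in Rad21 KO and 0.525% and 0.480% in WT. With Lars2 and Gm15564 left out of the totals, these shares were 0.543% and 0.527% in Rad21 KO and 0.558% and 0.519% in WT, and the groups overlapped.

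The spread between replicate libraries was of the same order as these differences. The median coefficient of variation was 6.35% between the Rad21 KO libraries and 7.82% between the WT libraries. WT replicate 1 exceeded WT replicate 2 for 68 of the 88 genes, while Rad21 KO replicate 1 exceeded Rad21 KO replicate 2 for 46 of 88.

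**Figure D2:**
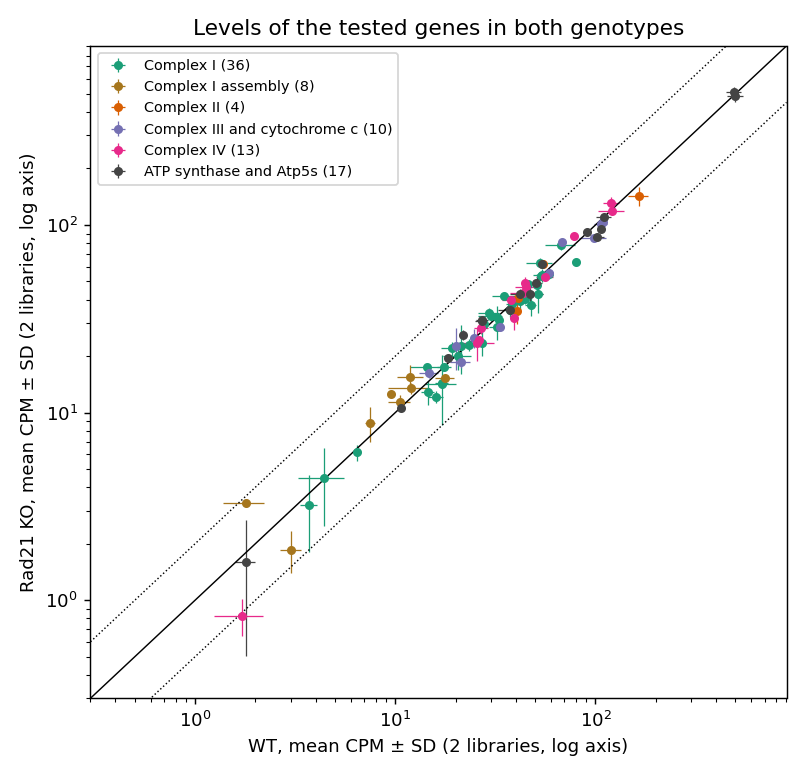
Mean level in Rad21 KO (vertical axis) against WT (horizontal axis) of each tested gene, in CPM on log axes, with bars for the SD of 2 libraries and dotted lines at a 2-fold difference. Points follow the diagonal from about 1 CPM up to Atp5a1 and Atp5b, and the points farthest from it are genes of few counts such as Ndufaf6 and Cox6b2.

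Complex I, the NADH dehydrogenase, contributed 36 tested subunit genes, 7 of them core subunits that carry the catalysis. The core subunit genes had a median log2 fold change of -0.11 and ranged from -0.33 to 0.14. Ndufs1, which encodes the largest iron-sulfur subunit, stood at 62.1 and 65.2 CPM in Rad21 KO and at 82.5 and 77.8 CPM in WT. Both knockout libraries were below both wild type libraries, and its log2 fold change of -0.33 (SE 0.11, 95% interval -0.60 to -0.06) did not pass after adjustment. Ndufs3, another core subunit, had 52.2 and 54.8 CPM in Rad21 KO and 54.4 and 52.1 CPM in WT, and its groups overlapped. Ndufv1, which binds NADH and its flavin, had 49.3 and 36.7 CPM in Rad21 KO and 53.7 and 49.6 CPM in WT, with knockout libraries farther apart than the genotype means. Among the other core genes, Ndufs7, Ndufs8 and Ndufv2 had log2 fold changes of -0.22, 0.14 and 0.00.

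Accessory subunits surround the core and are needed for assembly and stability. Their 29 genes had a median log2 fold change of -0.05 and ranged from -0.39 to 0.29. Ndufs4, chosen after its value was seen and known as a gene whose loss in mice gives a model of mitochondrial disease, had 34.1 and 40.7 CPM in Rad21 KO and 49.5 and 45.4 CPM in WT. The groups did not overlap, and its log2 fold change was -0.34 (SE 0.14; edgeR adjusted p = 0.166). Ndufb3, a subunit of the membrane arm, was farthest below 0 in this group, with 11.5 and 12.8 CPM in Rad21 KO against 16.9 and 15.0 CPM in WT, which gave -0.39 on the log2 scale (SE 0.19). On the other side, Ndufb2 had 65.7 and 60.04 CPM in Rad21 KO against 47.1 and 58.4 CPM in WT, or 0.25 on the log2 scale (SE 0.15). Ndufb6 and Ndufb5, also of the membrane arm, stood above 0 at 0.29 (SE 0.20) and 0.26 (SE 0.15), without overlap. Ndufv3, a subunit near the NADH site, had 80.9 and 75.1 CPM in Rad21 KO against 75.4 and 59.3 CPM in WT, and its groups overlapped. Several accessory genes lay almost on 0: Ndufa13, also known in apoptosis as GRIM-19, had 37.1 and 38.5 CPM in Rad21 KO and 40.4 and 36.4 CPM in WT. Ndufb11 had 57.2 and 50.7 CPM in Rad21 KO and 58.2 and 50.3 CPM in WT. The low Ndufa5 differed more between replicates than between genotypes, with 5.89 and 3.06 CPM in Rad21 KO and 5.19 and 3.60 CPM in WT. The groups did not overlap for 16 of the 36 subunit genes of complex I (44.4%), where 58.9% of all tested genes did not. Of these 36, 23 were below 0 and 13 above. Summed, they reached 1200 and 1158 CPM in Rad21 KO and 1245 and 1174 CPM in WT.

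The Ndufaf genes encode assembly factors of complex I, which act during its construction and are absent from the finished enzyme. Of 8 genes, 6 had a log2 fold change above 0, with a median of 0.21, and 0 passed the threshold. Their sum was 78.6 and 86.2 CPM in Rad21 KO and 71.3 and 76.4 CPM in WT, so that both knockout libraries lay above both wild type libraries. No exact permutation test of 2 against 2 libraries can give a p under 0.333. Other sums separated the other way. The complex I core genes summed to 310 and 297 CPM in Rad21 KO against 340 and 326 CPM in WT. For the peripheral stalk of the ATP synthase the sums were 270 and 276 CPM in Rad21 KO against 316 and 286 CPM in WT. Ndufaf1 had 13.8 and 17.2 CPM in Rad21 KO and 10.7 and 13.2 CPM in WT (log2 fold change 0.38, SE 0.22). Ndufaf5 was higher in both knockout libraries, with 12.2 and 12.8 CPM in Rad21 KO and 9.43 and 9.56 CPM in WT (0.39, SE 0.20), and did not pass. Ndufaf3 and Ndufaf2 had the other sign: Ndufaf3 stood at 15.7 and 15.0 CPM in Rad21 KO and 19.1 and 16.3 CPM in WT (-0.21, SE 0.18). Ndufaf2 had 2.19 and 1.53 CPM in Rad21 KO and 3.28 and 2.77 CPM in WT (-0.70, SE 0.40). Ndufaf6 had the largest positive log2 fold change of all 88 genes, 0.88 (SE 0.39, 95% interval -0.04 to 1.81), on 25 and 23 counts in Rad21 KO and 11 and 15 counts in WT. The interval of this gene, which rests on few counts, included 0 and also more than 2-fold.

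Complex II oxidises succinate and is also an enzyme of the citric acid cycle. Sdha, its flavoprotein, had 154 and 131 CPM in Rad21 KO and 178 and 151 CPM in WT, and the groups overlapped. Sdhb, the iron-sulfur subunit, had 63.5 and 61.0 CPM in Rad21 KO and 56.4 and 52.8 CPM in WT, without overlap (log2 fold change 0.19, SE 0.12). The membrane anchors differed in sign or size: the log2 fold change was -0.22 for Sdhc (SE 0.15) and 0.00 for Sdhd (SE 0.13). None of the 4 passed.

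Complex III hands electrons to cytochrome c. Its 9 genes had a median log2 fold change of -0.07 and ranged from -0.20 to 0.26. Uqcrfs1, the Rieske iron-sulfur protein, was the member farthest from 0, with 79.1 and 83.4 CPM in Rad21 KO and 70.4 and 65.8 CPM in WT. Its libraries did not overlap between genotypes, and the log2 fold change of 0.26 (SE 0.11) did not pass (edgeR adjusted p = 0.193). The core proteins Uqcrc1 and Uqcrc2 overlapped between genotypes: Uqcrc1 had 98.3 and 104 CPM in Rad21 KO and 112 and 101 CPM in WT. For Uqcrc2 the values were 109 and 98.0 CPM in Rad21 KO and 113 and 106 CPM in WT. Cyc1, the cytochrome c1 that passes electrons on, had 56.9 and 54.6 CPM in Rad21 KO and 60.5 and 57.2 CPM in WT, without overlap by a narrow margin (log2 fold change -0.08, SE 0.12). Uqcrh, the hinge protein that helps cytochrome c1 meet cytochrome c, had 85.3 and 85.9 CPM in Rad21 KO and 108 and 87.2 CPM in WT. The small subunits Uqcrb, Uqcrq, Uqcr10 and Uqcr11 lay between -0.20 and 0.17.

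Cycs encodes cytochrome c, the mobile carrier between complexes III and IV, which also triggers apoptosis when it leaves the mitochondrion. It had 29.8 and 27.7 CPM in Rad21 KO and 34.4 and 32.5 CPM in WT, without overlap; the log2 fold change was -0.22 (SE 0.14; edgeR adjusted p = 0.352). The transcription factor NRF-1 is a known activator of Cycs and of many other respiratory chain genes. The stretch from 250 bases before to 30 after the Cycs start, at chr6:50566540-50566819 on the minus strand of GRCm38.p6 (RefSeq), is shown because it holds the NRF-1 core letters, which stand in capitals where the matches on both strands overlap.

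Cycs: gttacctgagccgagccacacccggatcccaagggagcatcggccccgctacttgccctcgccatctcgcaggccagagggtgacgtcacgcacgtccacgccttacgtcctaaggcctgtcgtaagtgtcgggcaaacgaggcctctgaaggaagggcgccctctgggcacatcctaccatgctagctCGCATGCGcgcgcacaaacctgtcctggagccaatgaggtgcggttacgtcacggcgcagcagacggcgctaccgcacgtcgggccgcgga

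Among the 94 genes, 75 had a RefSeq start-site window of 300 bases, 80 windows in all. Each was searched on both strands for GCATGCG (NRF-1 core), CCGGAAG (a site of ETS factors such as GABP) and AAGATGG (YY1 core), and matches of different motifs overlapped in 0 of these windows. The NRF-1 letters were found in 14 of 80 windows (17.5%), against 6.4% of the windows of all tested genes and 3.58% of all 32851 windows. The ETS letters were in 18 of 80 (22.5%), against 17.7% of tested genes' windows and 8.86% of all. For the YY1 letters the counts were 11 of 80 (13.8%), against 7.09% and 6.34%. The median number of CG pairs per window was 19.5 for these genes, 20.0 for all tested genes and 7.0 for all windows. Such matches describe the letters only and do not show binding. The genes of these 3 factors had log2 fold changes near 0: -0.04 for Nrf1 (SE 0.13), 0.09 for Gabpa (SE 0.10) and 0.00 for Yy1 (SE 0.10).

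Complex IV, cytochrome c oxidase, had 12 genes of its common forms tested, and their log2 fold changes ran from -0.28 to 0.16 around a median of 0.02. Cox4i1, the common form of subunit 4, had 138 and 124 CPM in Rad21 KO and 128 and 112 CPM in WT. Cox7a2l, a factor that joins complexes III and IV into supercomplexes, had 119 CPM in both Rad21 KO libraries and 134 and 109 CPM in WT. Cox7c was farthest from 0, with 28.9 and 35.2 CPM in Rad21 KO and 40.2 and 37.8 CPM in WT (log2 fold change -0.28, SE 0.15). Cox5a and Cox5b, which encode the subunit 5 pair, had log2 fold changes of 0.07 and -0.01, and both overlapped. Cox6a1 and Cox6c were higher in both knockout libraries than in both wild type ones, at 0.16 (SE 0.11) and 0.14 (SE 0.13), and did not pass. The groups did not overlap for 4 of the 12 (33.3%), where 58.9% of all tested genes did not. The intervals of all 12 lay inside 2-fold, as did those of 65.3% of all tested genes.

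Several complex IV subunits have a second gene used in particular tissues such as muscle, lung or testis, and these forms were scarcely counted in either genotype. Cox6a2 and Cox7b2 had 0 counts in all 4 libraries, which allows up to 3 counts, or 0.410 to 0.417 CPM, per library. Cox7a1 had 7 and 4 counts in Rad21 KO and 4 and 3 in WT. Cox4i2 had 4 and 9 counts in Rad21 KO and 2 and 4 in WT. Ndufa4l2 had 0 and 2 counts in Rad21 KO and 2 and 0 in WT. These genes and Cox8b were not abundant enough to test. Cox8b had 4 and 5 counts in Rad21 KO and 1 and 0 in WT. Cox6b2, a testis form, was the exception that entered the test, with 7 and 5 counts in Rad21 KO and 15 and 10 in WT. Its log2 fold change of -1.04 (SE 0.52, edgeR adjusted p = 0.220) had an interval from -2.26 to 0.18. It passed the filter on low counts only through the WT libraries, where it was higher. Its fold change is therefore no sign of a fall, and tissue forms higher in Rad21 KO, such as Cox8b, were left untested.

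The common partners of these genes had from 147 to 1010 counts in every library. Cox4i1 had 1010 and 895 counts in Rad21 KO and 937 and 809 in WT. Cox6a1 had 648 and 611 counts in Rad21 KO and 581 and 549 in WT, Cox6b1 had 401 and 367 in Rad21 KO and 439 and 375 in WT, and Cox8a had 346 and 330 in Rad21 KO and 358 and 297 in WT. Cox7a2 had 288 and 291 counts in Rad21 KO and 297 and 254 in WT, Cox7b had 185 and 169 in Rad21 KO and 187 and 195 in WT, and Ndufa4 had 147 and 193 in Rad21 KO and 216 and 157 in WT. Counts also depend on transcript length, which was not used here, so they give no ratio of abundance between genes.

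**Figure D3:**
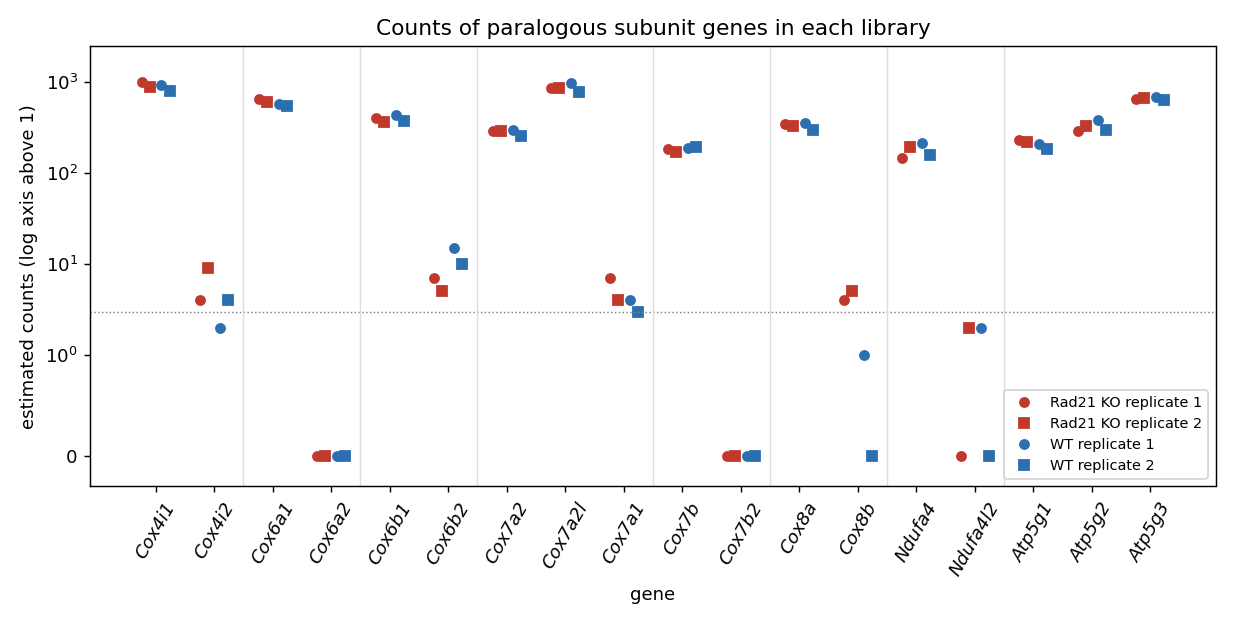
Estimated counts (vertical axis, log scale above 1) in each library for genes that encode alternative forms of a subunit, with the dotted line at 3 counts. The common forms sit above 100 counts in all 4 libraries, and the tissue forms of complex IV sit at or below 15.

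The start regions of common and tissue forms are shown for 2 of the pairs, chosen because their letters differ. They run from 250 bases before to 30 after the RefSeq start on GRCm38.p6, all on the minus strand: chr19:7217587-7217866 for Cox8a, chr7:140900417-140900696 for Cox8b, chr7:30626085-30626364 for Cox6b1 and chr7:4753065-4753344 for Cox6b2. Capitals mark the ETS letters, read on either strand.
Cox8a: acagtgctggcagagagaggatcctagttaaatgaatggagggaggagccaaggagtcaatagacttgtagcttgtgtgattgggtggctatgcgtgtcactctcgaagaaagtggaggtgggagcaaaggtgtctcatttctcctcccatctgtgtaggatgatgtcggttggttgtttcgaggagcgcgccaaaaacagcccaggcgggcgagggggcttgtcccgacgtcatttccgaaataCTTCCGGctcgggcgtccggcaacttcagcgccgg
Cox8b: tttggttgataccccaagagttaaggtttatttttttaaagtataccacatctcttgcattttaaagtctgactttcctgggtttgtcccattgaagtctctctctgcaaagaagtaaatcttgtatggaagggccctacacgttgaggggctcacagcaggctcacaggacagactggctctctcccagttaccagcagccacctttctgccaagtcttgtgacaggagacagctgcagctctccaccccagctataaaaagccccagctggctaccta
Cox6b1: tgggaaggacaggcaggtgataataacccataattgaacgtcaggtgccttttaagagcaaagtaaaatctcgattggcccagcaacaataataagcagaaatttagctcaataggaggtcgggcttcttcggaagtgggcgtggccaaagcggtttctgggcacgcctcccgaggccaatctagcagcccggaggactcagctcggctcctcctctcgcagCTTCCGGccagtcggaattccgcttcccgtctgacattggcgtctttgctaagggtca
Cox6b2: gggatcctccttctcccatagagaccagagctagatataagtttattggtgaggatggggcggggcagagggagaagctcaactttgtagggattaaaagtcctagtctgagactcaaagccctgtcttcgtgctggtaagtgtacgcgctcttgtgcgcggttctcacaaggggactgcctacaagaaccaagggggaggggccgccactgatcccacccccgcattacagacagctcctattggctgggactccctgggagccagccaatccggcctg

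Both common forms held the ETS letters once in the stretch shown, and neither tissue form held any of the 3 motifs. In the full windows Cox8a had 19 CG pairs and Cox8b 2, while Cox6b1 had 17 and Cox6b2 10. Of the other pairs with both windows, Cox7a2 and Cox7a1 held no motif, and neither did Cox7b and Cox7b2. Their CG pairs numbered 20 for Cox7a2, 7 for Cox7a1, 5 for Cox7b and 10 for Cox7b2. Of the 6 common forms named above that had a window, 3 held a motif (Cox6a1, Cox6b1 and Cox8a) and 3 held none (Cox7a2, Cox7b and Ndufa4). Of the 4 tissue forms with a window 0 did. Among the other common complex IV genes with a window, Cox5a, Cox5b and Cox7a2l held none and Cox7c held the YY1 letters. Any of the 3 motifs was in 28.0% of the windows of tested genes and 17.3% of all windows. So few windows cannot set either form apart from these shares.

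Complex V, the ATP synthase, had 16 genes tested, and their log2 fold changes ran from -0.24 to 0.25 around a median of 0.00. The head of the enzyme makes the ATP. Atp5a1, the alpha subunit, had 513 and 463 CPM in Rad21 KO and 530 and 466 CPM in WT. Atp5b, the catalytic beta subunit, had 532 and 491 CPM in Rad21 KO and 522 and 461 CPM in WT. Both overlapped between genotypes, and their intervals ran from -0.30 to 0.24 and from -0.20 to 0.32. Atp5c1, the gamma subunit that forms the turning shaft, had 108 and 113 CPM in Rad21 KO and 117 and 103 CPM in WT. Atp5d, the delta subunit of the central stalk, had 62.3 and 61.3 CPM in Rad21 KO and 52.5 and 55.5 CPM in WT (log2 fold change 0.19, SE 0.12). Atp5e, the epsilon subunit beside it, had 30.4 and 31.1 CPM in Rad21 KO and 28.3 and 25.6 CPM in WT, also without overlap (0.19, SE 0.15).

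Subunit c, which forms the rotating ring in the membrane, is encoded by Atp5g1, Atp5g2 and Atp5g3, whose mature proteins are identical. Atp5g1 had 31.6 and 30.9 CPM in Rad21 KO and 28.4 and 25.8 CPM in WT. Atp5g2 had 39.97 and 45.6 CPM in Rad21 KO and 52.6 and 41.4 CPM in WT. Atp5g3 had 88.4 and 93.95 CPM in Rad21 KO and 93.5 and 88.2 CPM in WT. The log2 fold changes of the 3 genes, 0.21, -0.14 and 0.01, did not share a sign, and their sum was 160 and 170 CPM in Rad21 KO and 174 and 155 CPM in WT. Since these genes are similar and the authors' handling of shared reads is not given in the sources used here, the split of counts among them is uncertain.

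The peripheral stalk holds the head still against the ring. Atp5f1, its b subunit, had 93.8 and 96.9 CPM in Rad21 KO and 109 and 104 CPM in WT, and Atp5h, its d subunit, 83.8 and 88.8 CPM in Rad21 KO and 108 and 96.1 CPM in WT. Both knockout libraries were below both wild type libraries for these genes, with log2 fold changes of -0.16 (SE 0.11) and -0.24 (SE 0.12). Atp5o, which ties the stalk to the head, had 44.9 and 41.0 CPM in Rad21 KO and 45.5 and 38.6 CPM in WT, and Atp5j 48.0 and 49.6 CPM in Rad21 KO and 53.2 and 47.5 CPM in WT. Both of these overlapped. Among the small membrane subunits, Atp5l had 24.8 and 27.1 CPM in Rad21 KO and 22.1 and 21.5 CPM in WT (log2 fold change 0.25, SE 0.15), and Atp5j2 had 34.6 and 36.0 CPM in Rad21 KO and 40.7 and 34.1 CPM in WT. Atp5s, a factor named after the synthase, had 6 and 17 counts in Rad21 KO and 12 and 14 in WT.

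The partner subunits encoded in mitochondrial DNA were measured in the same libraries. Of 13 such genes 12 were tested. Over all tested genes 7.6% were called higher and 5.17% lower in Rad21 KO. Of the mitochondrially encoded genes 8 were higher and 0 lower, beside 0 of 88 nuclear genes. Their median log2 fold change was 0.71 and that of the nuclear genes -0.02. Summed, they stood at 15550 and 17980 CPM in Rad21 KO and 12220 and 11350 CPM in WT. The largest rise was that of mt-Nd2, a complex I core subunit, with 497 and 606 CPM in Rad21 KO and 251 and 252 CPM in WT (log2 fold change 1.13, SE 0.12; edgeR adjusted p = 0.00301). mt-Nd4, another complex I subunit, rose by 1.11 on the log2 scale (SE 0.11), mt-Nd1 by 0.84 (SE 0.14) and mt-Nd3 by 0.80 (SE 0.13). Of the 4 that did not pass, mt-Co1, the catalytic subunit of complex IV, had the smallest log2 fold change at 0.29. With no filter on low counts, where 2.55% of all genes were called, 3 of the 13 were.

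Counts from mitochondrial DNA per count of the 94 nuclear genes were 3.41 and 4.07 in Rad21 KO and 2.57 and 2.62 in WT. Within complex I this ratio was 2.45 and 3.07 in Rad21 KO and 1.37 and 1.48 in WT. For the ATP synthase it was 1.15 and 1.45 in Rad21 KO and 0.786 and 0.797 in WT, and for complex III 1.99 and 2.26 in Rad21 KO and 1.19 and 1.32 in WT. Complex IV had 14.0 and 16.0 in Rad21 KO and 11.8 and 12.3 in WT. In each of these 5 comparisons both knockout libraries were above both wild type libraries, with a two-sided exact permutation p = 0.333, the smallest that 2 against 2 libraries allow. The libraries were depleted of ribosomal RNA, and the reach of that step over mitochondrial transcripts was not tested.

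**Figure D4:**
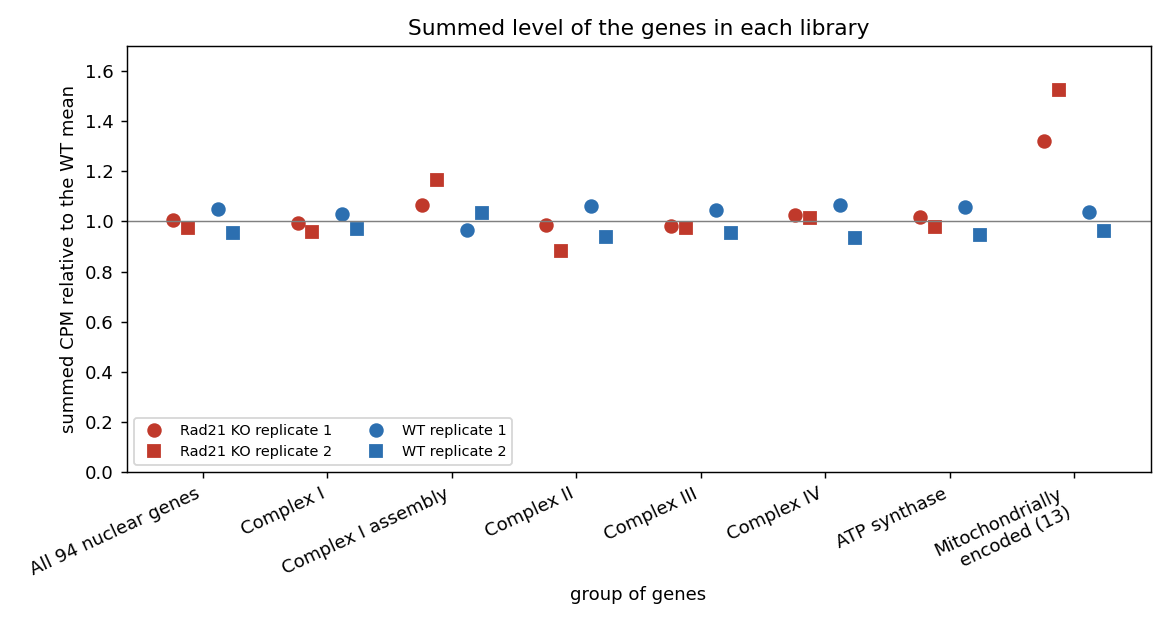
Summed CPM of each group of genes in each library (points), relative to the mean of the 2 WT libraries, with Rad21 KO in red and WT in blue. Both genotypes overlap for the nuclear complexes, the Rad21 KO points lie above the WT points for the complex I assembly factors, and the 13 mitochondrially encoded genes lie above 1 in both Rad21 KO libraries.

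Other genes of mitochondrial respiration were read from 5 further lists, beside the 12.8% called over all genes. Of 37 tested assembly factors outside the Ndufaf family 1 (2.7%) was called, Uqcc1, an assembly factor of complex III, with 42.6 and 55.5 CPM in Rad21 KO and 18.9 and 17.7 CPM in WT. Its rise was 1.42 on the log2 scale (SE 0.17; edgeR adjusted p = 0.00434). Of 17 regulators of mitochondrial biogenesis and mitochondrial DNA 2 (11.8%) rose: Polg2, the accessory subunit of the mitochondrial DNA polymerase, stood at 78.4 and 105 CPM in Rad21 KO and 42.5 and 42.8 CPM in WT. Ppargc1b, a coactivator of respiratory chain genes, stood at 17.1 and 11.3 CPM in Rad21 KO and 4.78 and 6.37 CPM in WT. The median log2 fold change was -0.05 for the assembly factors and 0.00 for the regulators, and all Rad21 KO values of these 3 called genes lay above the WT values.

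Of 18 genes of the citric acid cycle and pyruvate dehydrogenase 1 (5.56%) fell, the mitochondrial isocitrate dehydrogenase Idh2, with 82.4 and 68.9 CPM in Rad21 KO and 113 and 106 CPM in WT. The median of the list was -0.04. Among 7 tested carriers, uncouplers and porins 2 (28.6%) were called: the phosphate carrier gene Slc25a3 rose by 0.38 on the log2 scale (SE 0.10), and Ucp2, an uncoupling protein homologue common in lymphoid tissue, fell by 0.50 on the log2 scale (SE 0.13). The mitochondrial ribosomal gene Mrpl58, the only one of its list analysed here, fell by 0.68 on the log2 scale (SE 0.15). With no filter on low counts 6 of these 7 calls were lost, all but that of Uqcc1, at fold changes close to those above. The call of Slc25a3 was also lost with upper-quartile factors (0.34) and that of Ucp2 with RLE factors (-0.50). Calls were lost without 1 library for Ppargc1b (1.02 without Rad21 KO replicate 1, 1.15 without WT replicate 1), Mrpl58 (-0.64 without Rad21 KO replicate 1, -0.52 without WT replicate 1) and Ucp2 (-0.38 without Rad21 KO replicate 2, -0.39 without WT replicate 2). Those of Idh2 (-0.40, -0.49 and -0.58) and Slc25a3 (0.34, 0.42 and 0.34) were lost without Rad21 KO replicate 2, WT replicate 1 or WT replicate 2.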

How the data were processed

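The authors deposited whole-number values per Ensembl gene for 4 RNA-seq libraries, read here as estimated counts; the submitters' processing notes name mm9. How reads were aligned and counted, and whether by strand, is not given in the sources used, so overlapping and near-identical genes have uncertain counts. Ribosomal RNA had been depleted, per the labels' protocols. Knockout columns write Rad21 without the 2 and were matched by genotype, cell type and replicate number. Totals were 9384505 and 6914654 counts in Rad21 KO and 6633506 and 6500819 in WT. The values were rounded as a precaution and tested in R 4.3.3 with edgeR 4.0.16 (TMM factors, the filterByExpr filter, quasi-likelihood test of genotype, no block, Benjamini-Hochberg over 12003 genes, threshold 0.05). Standard errors came from the fitted weights and the moderated quasi-dispersion, and intervals from t quantiles. Alternatives were DESeq2 1.42.0, limma-voom (limma 3.58.1), other scalings and filters, a block, leaving out each library, and leaving out Lars2 and Gm15564. The procedure was tested on simulated data with the same spread setting for every gene and changes of 2-fold or more in genes at 5 CPM or more. Smaller changes and genes of lower level were not probed by it. Symbols were found for 17342 of 17849 identifiers. The members and lists were chosen with earlier results of these data known. Named genes were, in each part of the chain, the 2 with most counts and the 1 farthest from 0, all paralogues, and up to 4 called genes per pathway list; other members given with values were added after their values were seen. Values of some genes are not reported here. The deposited peak lists were not used here, as gene positions on mm9 were not at hand.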

Additional observations from a re-analysis of the deposited data

How the results depend on the processing

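Under every alternative that kept all 4 libraries, 0 members were called higher and 0 lower. These covered scaling, filter, tool, block, choice of members, and the fit without Lars2 and Gm15564. The smallest adjusted p of a member lay between 0.0687 and 0.267. The share of all genes called in these fits ran from 2.55% with no filter on low counts to 15.4% at 5 CPM or more on average. Where few genes were called at all, 0 member calls say less. The median member log2 fold change ranged from -0.09 to 0.04 on leaving out 1 library, the members inside 2-fold from 75 to 81, and the summed level (log2 ratio) from -0.08 to 0.06. The summed level was -0.30 as a percent of raw counts, which keeps the counts of Lars2 and Gm15564 in the totals, against -0.02 with TMM. With upper-quartile factors the median of all genes was -0.05. The mitochondrially encoded genes had 3 calls with no filter on low counts, where 17003 genes were tested, and 6 to 11 on leaving out 1 library. With the replicate block there were again 0 member calls (median -0.02) and 6 mitochondrially encoded ones, 5 of 7 calls in the pathway lists (all but Uqcc1 and Polg2) were lost, and calls over all genes numbered 1025, against 1533 without the block, 433 with no filter and 947 without WT replicate 2. The replicate numbers are not said to mark a shared source, and deviations of equal numbers correlated at 0.009 over 9822 genes.

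Of 441 values of 37 named members under alternatives, 0 passed the threshold and 18 had the other sign, all of genes not called. Atp5g3 stood at -0.036 with upper-quartile factors and at -0.0036 without Lars2 and Gm15564. On leaving out 1 library it ranged from -0.041 to 0.057, Atp5g2 from -0.30 to 0.045, Atp5b from -0.035 to 0.15, Atp5a1 from -0.12 to 0.065, Atp5j2 from -0.21 to 0.050, Uqcrc2 from -0.15 to 0.0075, Uqcrc1 from -0.15 to 0.0041, Cox7a2l from -0.18 to 0.13, Atp5s from -1.09 to 0.41, Ndufa4 from -0.34 to 0.11, Cox7a2 from -0.028 to 0.18, Cox8a from -0.075 to 0.18 and Cox6b1 from -0.18 to 0.026; the cause was not tested. Among uncalled members that kept their sign, Sdhc ranged from -0.37 to -0.062 in the same way, Ndufb2 from 0.10 to 0.41 and Cox7c from -0.42 to -0.14. A lone library in such a fit is assumed to vary like the others. Members under about 5 CPM had intervals wider than 2-fold, and the parts of depth and replicate spread in this were not tested.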
